A study of Mus musculus with 60 samples.

Results

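The 7 genes described here were followed in nascent RNA of mouse embryonic stem cells, chosen by name as genes of the formative and primed states of pluripotency: Otx2, Pou3f1, Zic2, Zic5, Tcf15, Fgf5 and Car12. All 7 were found among the 24260 gene symbols of the deposited values, and each was represented by the RefSeq transcript with the highest summed level, with no minimum on expression. Only the first 5 encode transcription factors. Fgf5 encodes a secreted growth factor, and Car12 encodes a carbonic anhydrase of the cell membrane.

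RNA bound to chromatin was sequenced from E14 cells, a line of mouse embryonic stem cells, 72 h after transfection of a control siRNA (siCtrl, 2 libraries) or an siRNA against Esrrb (siEsrrb, 2 libraries). Both groups grew in serum with the cytokine LIF and without feeder cells named in the labels, and no other alteration of the cells is named for them. The other 56 samples of the series were not analysed here. Much of the RNA held on chromatin is unfinished transcript, and the values below count introns together with exons.

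Naive stem cells resemble the epiblast before implantation of the embryo, and Esrrb is an orphan nuclear receptor of the network that keeps them so. On leaving this state, cells pass through a formative phase towards the primed epiblast. Otx2 and Pou3f1 (Oct6) act early in that transition, Zic2 and Zic5 are zinc finger factors that occupy enhancers in primed cells, and Fgf5 is a classical marker of the epiblast after implantation.

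Depth lay between 22363943 and 24764879 reads in the replicate 1 libraries and between 61857158 and 68002338 in the replicate 2 libraries, as recovered from the deposited values. Levels are scaled RPKM, that is the deposited reads per unit of gene length and library depth divided by a library factor of 0.920 to 1.08, and are comparable between genes. The targeted gene was lower in both siEsrrb libraries: Esrrb stood at 3.39 and 3.10 scaled RPKM in siCtrl replicates 1 and 2 and at 1.50 and 2.08 in siEsrrb, or 44.2% and 67.0% of control by replicate number (log2 fold change -0.72, SE 0.15, limma adjusted p = 0.394). The labels do not say that the libraries of a group came from separate cultures, so p-values measure the spread between these libraries only. In bulk RNA, more cells that express a gene and more RNA per cell cannot be told apart.

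Of the 7 genes, 5 (Zic2, Pou3f1, Zic5, Otx2 and Fgf5) had both siEsrrb libraries above both controls, Tcf15 had both below, and Car12 overlapped between the groups. Among all 21334 genes above 0 in any library, 20.8% were higher and 18.5% were lower in this sense. Of the 5 with a mean of at least 0.5 RPKM, 4 were higher and 1 was lower, against 21.8% and 22.0% of 9758 such genes. None of the 7 was apart by 1.5-fold on the scale with the pseudocount, against 0.347% (higher) and 0.314% (lower) of all genes. By replicate number, 6 of the 7 were higher in both comparisons and 1 was lower, against 34.5% and 32.4% of all genes. The median log2 fold change of the 7 genes was 0.27 (0.42 in replicate 1 and 0.14 in replicate 2), and that of all genes was 0.00. With voom, which adds no pseudocount of RPKM, the medians were 0.57 and 0.01. None of the 7 passed the test across all genes, in which limma called 0 genes at an adjusted p under 0.05 (smallest adjusted p = 0.142, 2018 genes at an unadjusted p under 0.05). The other tool, voom on recovered reads, also called 0 genes, with 1964 at an unadjusted p under 0.05. Among the 7, the unadjusted p was under 0.05 for 1 higher gene (Zic2) and 1 lower gene (Tcf15) with limma, against 5.29% and 4.17% of all genes, and for 4 higher genes and 1 lower gene with voom, against 5.84% and 5.36% of the 17539 genes it tested.

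**Figure D1:**
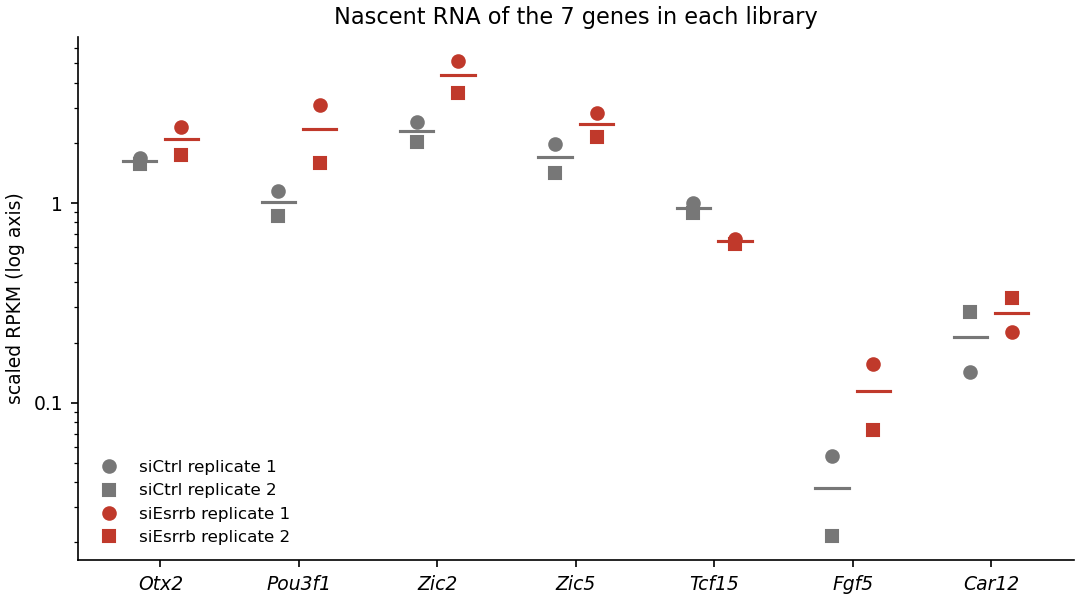
Scaled RPKM (log axis) of the 7 genes in each of the 4 libraries, 1 point per library. Zic2 has the highest level in both groups, Fgf5 the lowest, and Tcf15 is the gene whose siEsrrb points both lie below the control points.

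Promoter windows were taken from RefSeq for 4 of the 7 genes (Otx2, Zic5, Fgf5 and Car12, and not Pou3f1, Zic2 and Tcf15). Their build was GRCm38.p6, whereas the deposited values were made on mm9. They show the sequence upstream of Otx2, Zic5 and Fgf5, which were higher after siEsrrb, and of Car12, which overlapped between the groups. Of the 7 windows, 3 are printed here, each the 250 bases before a start, 5′ to 3′ on the strand of the gene: the most distal start of Otx2 (chr14:48667645-48667894, minus strand), Zic5 (chr14:122465659-122465908, minus strand) and Fgf5 (chr5:98253934-98254183, plus strand).
Otx2: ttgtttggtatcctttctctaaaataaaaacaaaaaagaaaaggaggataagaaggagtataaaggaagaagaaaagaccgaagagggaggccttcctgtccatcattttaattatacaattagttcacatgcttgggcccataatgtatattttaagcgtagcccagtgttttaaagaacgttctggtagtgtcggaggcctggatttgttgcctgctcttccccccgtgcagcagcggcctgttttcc
Zic5: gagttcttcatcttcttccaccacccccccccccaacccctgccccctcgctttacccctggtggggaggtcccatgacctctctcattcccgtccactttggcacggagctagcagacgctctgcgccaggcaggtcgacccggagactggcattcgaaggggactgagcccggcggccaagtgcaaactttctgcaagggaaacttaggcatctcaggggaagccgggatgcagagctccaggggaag
Fgf5: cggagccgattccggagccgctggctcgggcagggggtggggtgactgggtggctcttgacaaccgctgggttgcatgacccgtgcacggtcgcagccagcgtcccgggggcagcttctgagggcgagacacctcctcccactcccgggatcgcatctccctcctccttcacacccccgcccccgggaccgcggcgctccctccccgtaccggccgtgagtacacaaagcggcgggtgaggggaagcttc

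In all, 9 motifs were searched on both strands of all 7 windows, chosen with earlier results of these data known. The 7 windows stand for 4 genes only: Otx2 alone has 4 of them, and those of its most distal starts overlap each other. The half-site of estrogen-related receptors, AAGGTCA, was in 0 of the 7 windows and in 4.08% of 32851 RefSeq windows of the same length, and its extended form TCAAGGTCA was in 0 of 7 and 0.387%. The octamer ATGCAAAT (1.60% of all windows) and the E-box CAGCTG (13.0%) were also in 0 of 7. The OTX-type motif GGATTA was in 1 of 7 and in 6.25% of all windows. Its match began 211 bases before the middle start of Otx2, and the 30 bases around it (chr14:48665303-48665332, minus strand) are shown with the motif in capitals.
Otx2: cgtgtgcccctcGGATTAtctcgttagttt

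The remaining motifs occur in many promoters. TATAAA (12.4% of all windows) lay 192 bases before the most distal start of Otx2, and CATCTG (14.4%) 59 bases before its most internal start. GGGCGG (32.7%) was in the windows of Fgf5 and Car12, and CCAAT (33.8%) in 1 Otx2 window. Of the motifs searched, TCAAGGTCA contains AAGGTCA.

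Zic2 (NM_009574), which encodes a zinc finger factor needed for forebrain development, was the most highly transcribed of the 7 genes. Its level was 2.55 and 2.02 scaled RPKM in siCtrl replicates 1 and 2, and 5.17 and 3.54 in siEsrrb replicates 1 and 2, from 298, 736, 526 and 1144 reads. Both siEsrrb libraries were above both controls, with the highest value in replicate 1. The means were 2.29 ± 0.374 and 4.36 ± 1.15 (SD, n = 2 each), and siEsrrb stood at 203% of control in replicate 1 (95% counting interval 175 to 234) and 175% in replicate 2 (160 to 192). On the log2(scaled RPKM + 0.5) scale, which understates changes of low genes, the fold change was 0.79 (SE 0.21; limma adjusted p = 0.461). These exact conditional intervals cover counting error only.

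Zic5 (NM_022987) lies beside Zic2 and is transcribed from the opposite strand. It stood at 1.97 and 1.42 scaled RPKM in the controls and 2.81 and 2.15 in siEsrrb. The groups did not overlap, although the lower siEsrrb value was close to the higher control value. The means were 1.70 ± 0.385 and 2.48 ± 0.465 (SD, n = 2 each), 142% of control in replicate 1 (122 to 166) and 151% in replicate 2 (136 to 167). The log2 fold change was 0.44 (SE 0.19; limma adjusted p = 0.584), lowered to 0.26 when siCtrl replicate 2 was left out and to 0.28 when siEsrrb replicate 1 was.

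The level of Zic2 relative to Zic5 was also higher in siEsrrb: the ratio of their RPKM was 1.30 and 1.42 in the controls and 1.84 and 1.65 in siEsrrb, without overlap. This ratio is free of library scaling, and it was not tested. The genes on either side did not share the direction. Clybl, a mitochondrial lyase, stood at 79.1% and 88.3% of control (log2 fold change -0.16, SE 0.12), and Ggact, a cyclotransferase, at 80.9% and 95.7% (-0.10, SE 0.10). A pair of noncoding neighbours below 0.5 RPKM, chosen after their values were seen, were higher in both siEsrrb libraries: Gm5089 at 215% and 163% of control, and 2610035F20Rik, between Zic5 and Zic2, at 143% and 139% from 16 to 63 reads a library. Pcca, a carboxylase subunit also chosen after its values were seen, stood at 85.9% and 90.7%.

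**Figure D2:**
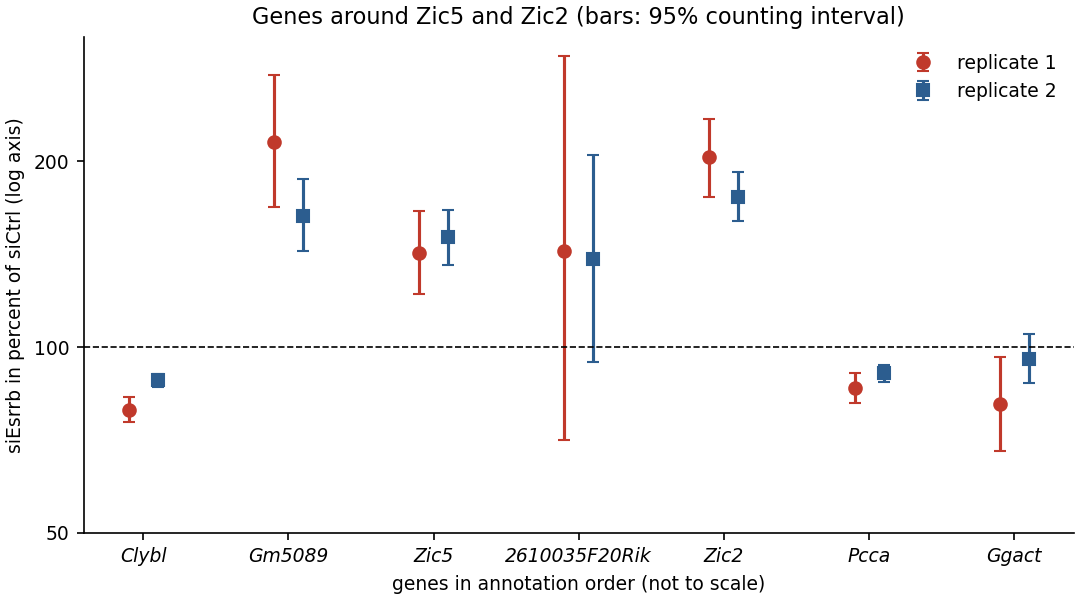
Percent of control (log axis) by replicate number for Zic2, Zic5 and the genes around them, in annotation order and not to scale, with 95% counting intervals. Zic2 lies at 203% and 175% and Zic5 at 142% and 151%, while Clybl and Ggact lie below 100%.

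Zic1 and Zic4, which encode related zinc finger factors, had at most 4 reads in any library, too few to compare the groups.

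Pou3f1 (NM_011141), a POU factor of the epiblast and of Schwann cells, was 1.15 and 0.862 scaled RPKM in the controls and 3.10 and 1.59 in siEsrrb, from 82, 191, 192 and 312 reads. Both siEsrrb values were higher, and the value of replicate 1 was far above that of replicate 2. The means were 1.01 ± 0.206 and 2.34 ± 1.07 (SD, n = 2 each), 269% of control in replicate 1 (206 to 352) and 184% in replicate 2 (153 to 222). The log2 fold change was 0.87 (SE 0.31; limma adjusted p = 0.537), and without siEsrrb replicate 1 it was 0.48. Its neighbours stood near the control level: Rragc, a lysosomal GTPase, stood at 92.6% and 99.7% of control, and Utp11, a ribosome assembly factor, at 101% and 98.1%. The other genes of POU class III had at most 10 reads in any library, so Pou3f1 carried nearly all reads of the class.

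Otx2 (NM_144841), a homeodomain factor of the epiblast and the anterior brain, was 1.68 and 1.57 scaled RPKM in the controls and 2.41 and 1.74 in siEsrrb. Both siEsrrb libraries were higher, but replicate 2 by little. The means were 1.63 ± 0.0757 and 2.08 ± 0.475 (SD, n = 2 each), 144% of control in replicate 1 (119 to 173) and 111% in replicate 2, where the counting interval of 98.8 to 124 includes no difference. The log2 fold change was 0.27 (SE 0.15; limma adjusted p = 0.685), and it was 0.08 without siEsrrb replicate 1 and 0.46 without siEsrrb replicate 2. Otx1 and Crx, the other genes of the OTX family, had at most 11 reads in any library.

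Otx2 is deposited as 4 transcript models of 3 distinct sets of values, with lengths of 5196, 7433 and 9968 bases. If the models share their 3′ end, an assumption, the longer ones add 2237 and 2535 bases upstream. In GRCm38.p6, RefSeq start sites lie 2535 bases apart between the most distal and the middle start, as in the outer stretch, but 2375 bases apart between the middle and the most internal start, against 2237 in the models. The annotated gene spans 10864 bases there, so where the shortest model lies was not settled. In the first added stretch siCtrl held 18 and 30 reads and siEsrrb 33 and 46, or 0.341 and 0.182 against 0.717 and 0.315 scaled RPKM, with overlap. In the outer stretch the reads were 15 and 31 against 25 and 74, or 0.251 and 0.166 against 0.479 and 0.447 scaled RPKM, with both siEsrrb libraries higher. Percent of control there was 191 in replicate 1 (97.0 to 390) and 269 in replicate 2 (175 to 423). Together, the added stretches held 13.8% (Wilson 95% interval 10.0 to 18.8) and 9.21% (7.24 to 11.7) of all Otx2 reads in the controls, and 18.4% (14.5 to 23.0) and 16.9% (14.3 to 19.8) in siEsrrb. Both siEsrrb shares were above both control shares, a difference that was not tested.

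**Figure D3:**
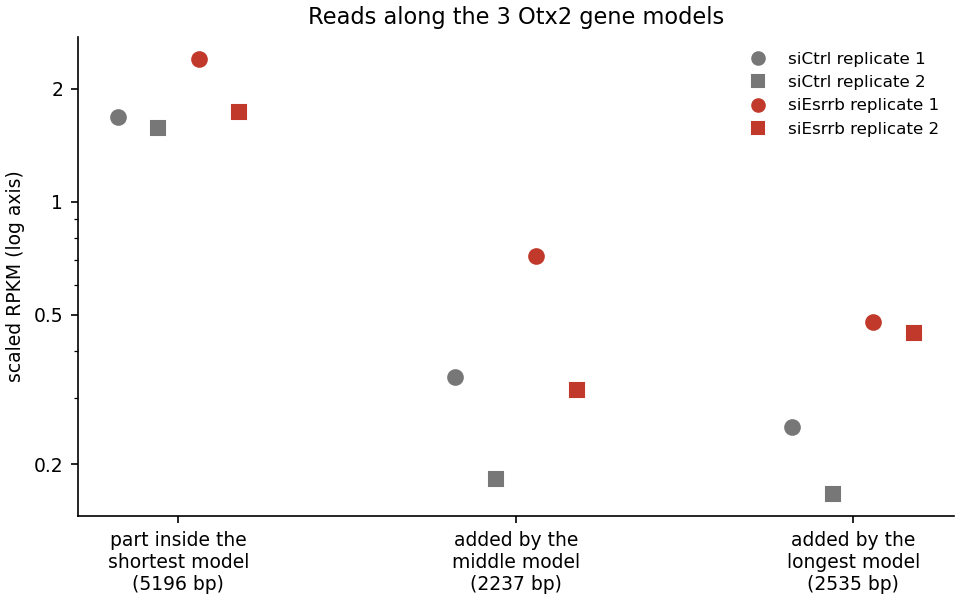
Scaled RPKM (log axis) in the shortest Otx2 model and in the stretches added by the longer models, 1 point per library. The outer stretch lies at 0.166 to 0.251 in the controls and 0.447 to 0.479 in siEsrrb, while the groups overlap in the stretch added by the middle model.

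Beside Otx2, Ktn1, a receptor for kinesin, was higher in both siEsrrb libraries (127% and 125% of control, log2 fold change 0.30, SE 0.06, limma adjusted p = 0.392), and Exoc5, a subunit of the exocyst, stood at 102% and 104%. The noncoding Otx2os1, chosen after its values were seen, stood at 157% and 116%. Strand use in the counting is not given in the sources used here, so reads of antisense partners cannot be told apart; no annotated gene overlaps any of the 7 in the RefSeq table.

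Tcf15 (NM_009328), a bHLH factor that marks cells about to leave the naive state, was the exception. It stood at 1.00 and 0.887 scaled RPKM in the controls and 0.664 and 0.625 in siEsrrb, from 130, 358, 75 and 224 reads. Both siEsrrb values were below both controls, and the replicates lay close together. The means were 0.945 ± 0.0825 and 0.645 ± 0.0276 (SD, n = 2 each), 66.2% of control in replicate 1 (49.1 to 88.6) and 70.5% in replicate 2 (59.4 to 83.6). The log2 fold change was -0.34 (SE 0.09; limma adjusted p = 0.454). Neither Srxn1, a sulfiredoxin (87.4% and 113%), nor Csnk2a1, a kinase subunit (89.9% and 97.1%), lay as low.

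bHLH factors such as Tcf15 pair with E proteins and are held back by ID proteins. Of the 8 genes of that list, 5 were higher, 1 was lower and 2 overlapped, against 20.8% higher and 18.5% lower of all genes. The median log2 fold change was 0.17, against 0.00 for all genes. The ID genes gave the highest values: Id1 stood at 5.00 and 4.28 scaled RPKM in the controls and 13.5 and 8.73 in siEsrrb (log2 fold change 1.15, SE 0.24, limma adjusted p = 0.393). Id3 stood at 219% and 190% of control (0.86, SE 0.41). The E protein genes Tcf4 (-0.07, SE 0.08) and Tcf12 (0.08, SE 0.08) had the lowest values among the 7 genes of the list with a mean of at least 0.5 RPKM.

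Fgf5 (NM_001277268) was scarcely transcribed: 0.0538 and 0.0214 scaled RPKM in the controls and 0.157 and 0.0731 in siEsrrb, from 29, 36, 74 and 109 reads over 22850 bases. Both siEsrrb libraries were higher, at 293% of control in replicate 1 (188 to 467) and 341% in replicate 2 (232 to 512). The means were 0.0376 ± 0.0229 and 0.115 ± 0.0597 (SD, n = 2 each). With the pseudocount of 0.5 the log2 fold change was 0.19 (SE 0.08; limma adjusted p = 0.584), whereas voom, which works on reads, gave 1.69 (SE 0.55; adjusted p = 0.346). With the pseudocount it was 0.09 without siEsrrb replicate 1 and 0.29 without siEsrrb replicate 2. Its neighbour Anxa3, an annexin, stood at 101% and 118%, and Mir703 on the other side rested on 8 to 22 reads a library.

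Among 8 other genes of the FGF family and its receptors, 4 were higher, 1 was lower and 3 overlapped (median log2 fold change 0.26). Of all genes, 20.8% were higher and 18.5% were lower. Fgf4, the ligand that drives exit from naive pluripotency, was the lower gene: 12.2 and 12.9 scaled RPKM with siCtrl against 7.12 and 8.37 with siEsrrb, or 58.4% and 64.9% of control (log2 fold change -0.67, SE 0.10, limma adjusted p = 0.373). Fgfr1, a receptor for these ligands, was higher, at 126% and 120% (0.24, SE 0.11). The other higher genes had means under 0.5 RPKM. Fgf15, at 162% and 127% (0.36, SE 0.27), overlapped between the groups.

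Car12 (NM_001306148) differed more between replicate numbers than between groups. It stood at 0.143 and 0.286 scaled RPKM in the controls and 0.227 and 0.335 in siEsrrb, so the groups overlapped. Percent of control was 159 in replicate 1 (131 to 194) and 117 in replicate 2 (108 to 127), with means of 0.214 ± 0.101 and 0.281 ± 0.0764 (SD, n = 2 each). The log2 fold change was 0.13 (SE 0.14; limma adjusted p = 0.817) and -0.01 without siCtrl replicate 1. It was 0.28 without siCtrl replicate 2, 0.23 without siEsrrb replicate 1 and 0.03 without siEsrrb replicate 2. Next to it, Rps27l, a ribosomal protein-like gene, stood at 159% and 116% of control and Usp3, a deubiquitinase, at 72.9% and 90.1%.

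Of 16 carbonic anhydrase genes, Car12 included, 4 were higher, 2 were lower and 10 overlapped (median log2 fold change 0.01). The shares of all genes were 20.8% higher and 18.5% lower. The lower genes, with means under 0.5 RPKM, were Car8 at 15.4% and 36.9% of control and Car13 at 62.9% and 74.1%. Car4, anchored at the cell surface, stood at 254% and 172% of control (0.79, SE 0.18), the cytosolic Car2 at 141% and 130% (0.35, SE 0.15) and Car11 at 124% and 82.8% (0.01, SE 0.10).

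**Figure D4:**
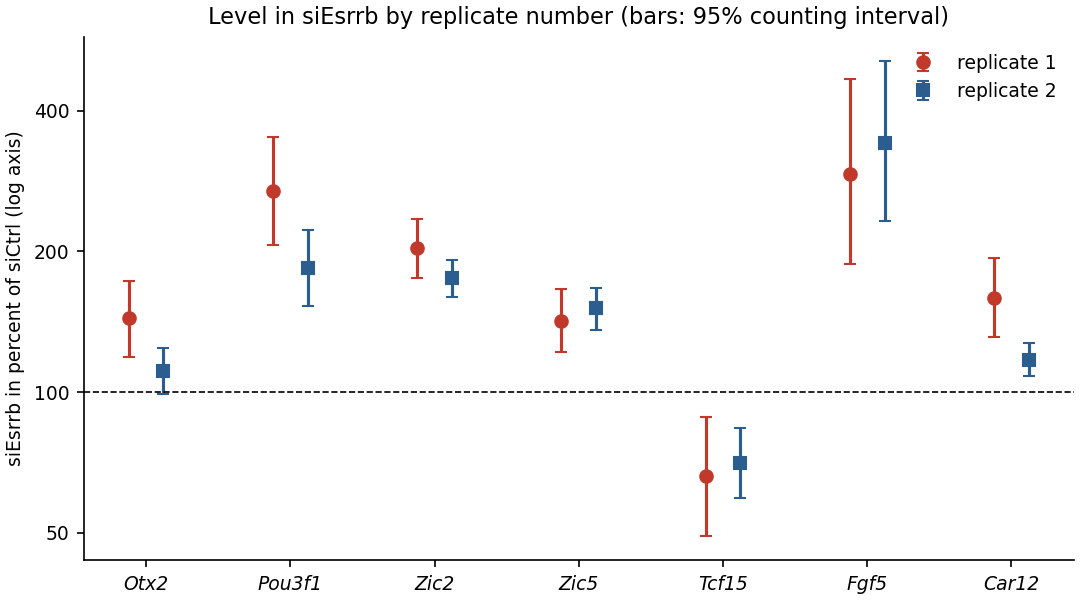
Percent of control (log axis) by replicate number for the 7 genes, with 95% counting intervals. Fgf5 and Pou3f1 lie farthest above 100%, Tcf15 lies below it in both replicates, and the Otx2 interval of replicate 2 includes it.

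On scaled values, in 6 of the 7 genes replicate 1 was above replicate 2 in both groups, and in Car12 the reverse held, against 29.6% and 37.2% of all genes. This depended on the scaling: in the deposited RPKM replicate 1 was above replicate 2 in both groups for 4 of the 7 (Pou3f1, Zic2, Zic5 and Fgf5), below it in both for Tcf15 and Car12, and Otx2 differed between the groups. In the controls the order of levels was Zic2, Zic5, Otx2, Pou3f1, Tcf15, Car12 and Fgf5, where Zic5 and Otx2 overlapped, as did Pou3f1 and Tcf15. In siEsrrb, Pou3f1 (mean 2.34) stood between Zic5 (2.48) and Otx2 (2.08), and Pou3f1 overlapped with both. Zic2 above them and Tcf15 below them did not overlap with their neighbours.

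Likeness over the 4 libraries was measured among 8701 genes, those of at least 0.5 RPKM on average without predicted genes, Rik clones, and microRNA, small nucleolar RNA and LOC names, as the Euclidean distance between centred log2 values. Nearest to Zic2 were Unc5b, a netrin receptor (0.0583), and Slc27a2, a fatty acid transporter (0.0994). Zic5 was nearest to Crebzf (0.0450) and Sfrp2 (0.0473), Otx2 to H1f5 (0.0279) and Fkbp4 (0.0409), Tcf15 to Pvt1 (0.0201) and Ankrd10 (0.0370), and Pou3f1 to DQ267100 (0.153) and Sned1 (0.181). Among the 5 of the 7 genes with a mean of at least 0.5 RPKM, Pou3f1 and Zic2 (0.226) and Otx2 and Zic5 (0.270) were closest. With 4 libraries these distances are descriptions.

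A list of 13 other genes of the formative and primed states was set beside the 7. Of these, 8 were higher in both siEsrrb libraries, 0 were lower and 5 overlapped, against 20.8% higher and 18.5% lower of all genes. With limma 7 had an unadjusted p under 0.05, all higher, against 5.29% of all genes, and 0 passed the adjusted test. With voom 7 had an unadjusted p under 0.05, all higher, against 5.84% of the genes it tested. The list was chosen with earlier results of these data known. The median log2 fold change was 0.50. Dnmt3b, a DNA methyltransferase, stood at 251% and 227% of control (1.11, SE 0.37) and Sall2, a zinc finger gene, at 329% and 227% (1.00, SE 0.18). Nodal, a ligand of the TGF-beta family, was at 119% and 111% (0.17, SE 0.07) and Utf1 at 126% and 94.8% (0.13, SE 0.25). All 11 naive factors, a list chosen in the same way, were lower in both siEsrrb libraries (median -0.85), against 18.5% of all genes. They ranged from Klf4 at 21.8% and 41.3% to Klf2 at 91.0% and 94.3% of control.

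**Figure D5:**
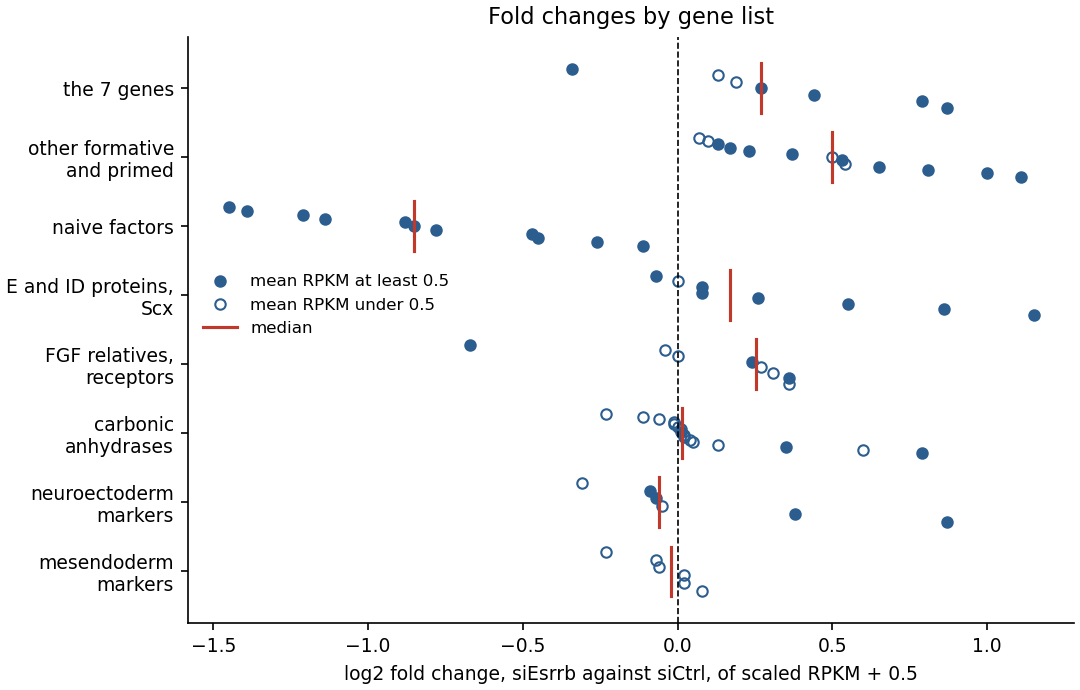
Log2 fold change (siEsrrb against siCtrl) of the genes in each list, 1 point per gene (filled, mean of at least 0.5 RPKM; open, below), with the median as a line. The formative and primed genes have a median of 0.50 and the naive factors a median of -0.85, with the 7 genes at 0.27.

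Markers of embryonic stem cells were high in every library as a sum, at 92.1 to 97.3 scaled RPKM in the controls and 79.5 to 91.6 in siEsrrb. The 7 markers did not move together: 1 was higher, 3 were lower and 3 overlapped, against 20.8% higher and 18.5% lower of all genes. Zfp42 stood at 46.6% and 62.8% of control and Dppa5a at 63.0% and 65.0%, whereas Pou5f1 was higher, at 169% and 108%. Sall4, at 122% and 116%, overlapped between the groups. The lists share genes: Zfp42 and Nanog, both lower, are also among the naive factors, and Utf1 is among the formative and primed genes. Several of the 7 genes are also used in neural tissue, and the 6 neuroectoderm markers summed to 5.76 to 6.13 in the controls and 8.58 to 8.76 in siEsrrb. Of these 6, 2 were higher, 2 were lower and 2 overlapped, against 20.8% higher and 18.5% lower of all genes. Nes, an intermediate filament, stood at 196% and 199% of control, Sox1 at 129% and 194%, Pax6 at 80.8% and 104% and Neurod1 at 79.1% and 103%. The 5 trophectoderm markers summed to 0.321 to 0.334 in the controls and 0.586 to 0.745 in siEsrrb. Of these 5, 4 were higher, against 20.8% of all genes, but all had a mean under 0.5 RPKM. Most of the sum came from Gata3 (232% and 233% of control) and Krt7 (205% and 146%). Cdx2, which overlapped, Elf5 and Hand1 had at most 13 reads in any library, too few to compare the groups. The part of the neuroectoderm and trophectoderm markers in the result was not tested. Markers of feeder fibroblasts (0.185 to 0.509 against 0.303 to 0.679), primitive endoderm (0.226 to 0.296 against 0.233 to 0.267) and mesendoderm (0.308 to 0.390 against 0.231 to 0.262) were low in all 4 libraries, and no listed gene was at 0 in all 4.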

How the data were processed

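Nascent RNA was measured in 4 libraries. The authors deposited 1 RPKM value per RefSeq transcript and library for 34929 transcripts, per the file headers. Per the submitters' processing notes, the build was mm9. They list CASAVA 1.4 and TopHat2 for every library and add Bowtie 1.1.1 and Bowtie2 for the replicate 1 libraries, with no role or order. The sources used here do not give the counting program, annotation version, strand use or filters. In a deposited table of the whole series, 2 columns of per-condition values were not used.

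Symbols came from the RefSeq table of GRCm38.p6 (34631 transcripts matched, 298 did not). RPKM were divided by median-of-ratios factors from 8784 genes, and log2(scaled RPKM + 0.5) of the 21334 genes above 0 was tested in R 4.3.3 with limma 3.58.1 (lmFit and eBayes, trend on, no replicate block, two-sided, Benjamini-Hochberg, threshold 0.05). Whole reads were recovered for 31753 of 31771 transcripts above 0 (99.9%, within 0.0002 of a read). They gave depths, counting intervals and the voom alternative (at least 20 reads, 17539 genes). The fits were also run on simulated reads with known changes. The simulation held no shift between replicates, unlike these libraries, so it does not show how the fits perform on them. The replicate 1 titles carry no number, so that number was given in accession order.

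The named genes are the 7, Esrrb, at most 4 examples a list (the lowest and highest log2 fold changes of genes with a mean of at least 0.5 RPKM), the nearest such gene on either side, and the most alike genes. The trophectoderm markers and the lower carbonic anhydrases, all below that level, were named as well. Nanog was named because lists share it. Members and lists were chosen with earlier results of these data known. Alternatives were other pseudocounts, scaling, filters, transcripts and tests, a replicate block, and leaving out each library. A result of the gene lists that is withheld is not reported here.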

Additional observations from a re-analysis of the deposited data

How the results depend on the processing

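Across the settings without a block, limma and voom called 0 genes, and (Fgf5 and Car12 were not in the fit on genes of at least 0.5 RPKM) the direction of Otx2, Pou3f1, Zic2, Zic5, Tcf15 and Fgf5 did not change. Car12 reversed to -0.01 without siCtrl replicate 1. Leaving out each library in turn gave log2 fold changes of 0.08 to 0.46 for Otx2, 0.48 to 1.26 for Pou3f1, 0.54 to 1.03 for Zic2, 0.26 to 0.62 for Zic5, -0.39 to -0.28 for Tcf15, 0.09 to 0.29 for Fgf5 and -0.01 to 0.28 for Car12. The lone library of an arm was then assumed to vary like the other group. Fgf5 depended on the scale: 0.63 with a pseudocount of 0.1, 0.10 with a pseudocount of 1, and 1.69 with voom. The labels state no pairing, and with 2 numbers the samples share only a number. Deviations of same-numbered libraries correlated at 0.39 over 9758 genes. With the replicate block, limma called 0 genes (adjusted p of the 7 genes 0.219 to 0.319), and 0 again in a block fit on the 9758 genes of at least 0.5 RPKM, a setting chosen after seeing the data. The replicate block with voom on recovered reads called 3659 of 17539 genes (20.9%) and 6 of the 7 genes, all but Otx2. The values were 1.08 for Pou3f1 (adjusted p = 0.00011), 0.88 for Zic2 (3.59e-06), 0.56 for Zic5 (0.000304), -0.53 for Tcf15 (0.0129), 1.66 for Fgf5 (0.000131) and 0.33 for Car12 (0.028). The cause was not tested. Depth limits Fgf5 and the outer Otx2 stretches most, and 2 libraries per group limit every test.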
